A study of Rattus norvegicus with 24 samples.

Results

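The genes described here encode the proteins of the cytosolic ribosome. They were taken as every probe set whose single platform-annotation gene symbol was Rpl or Rps followed by a digit, or Rplp0, Rplp1, Rplp2 or Rpsa, with the S6 kinases (Rps6k) and symbols marked as pseudogenes left out. This gave 309 of the 20917 probe sets on the array, under 106 symbols. Of these symbols, 56 named a ribosomal protein itself (256 probe sets), and 50 were ribosomal protein-like or otherwise related (53 probe sets, among them Rpl3l, Rpl7l1, Rps4y2 and Rps19bp1). A filter on low signal left 295 of the 309 member probe sets, out of 15687 on the whole array, for testing. All 256 probe sets of the 56 ribosomal protein genes passed it, and 39 of the 53 like or related probe sets did.

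The arrays, Affymetrix whole-transcript arrays of liver RNA, came from 24 F2 females of the Sprague-Dawley rat strain. The grandfather of each female had eaten either chow or a high-fat diet (HFD), which gives a chow line and an HFD line. Each female was fed chow or an HFD for 12 weeks (its fat content is labelled 42 / 45% of energy). In the chow line 7 females ate chow and 6 ate the HFD. In the HFD line 6 ate chow and 5 ate the HFD, where the series' own description speaks of 6 to 7 animals per group. No label ties a female to a litter or to a particular grandfather. The p-values therefore measure the spread between these samples. The growth protocol in the labels mentions gonadal fat, whereas each sample is titled and annotated as liver. The 7 hepatocyte markers measured summed to intensities of 48565 to 61953 per array, and the 5 adipocyte markers to at most 513.

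A ribosome is built from ribosomal RNA and a fixed set of proteins, divided between a small subunit (genes named Rps) that reads the messenger RNA and a large subunit (Rpl) that forms the peptide bond. In liver, as in other tissues, most ribosomal protein messenger RNAs start with a cytosine followed by an unbroken run of pyrimidines, the 5′ terminal oligopyrimidine (TOP) motif. Through this start their translation is coupled to nutrient supply by mTORC1 and the RNA-binding protein LARP1, so that the output of these genes is regulated at translation as well as in RNA level. An array of total RNA sees the RNA level only.

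The start regions of several members show the motif this family is known for. The sequences are RefSeq's on the GRCr8 assembly, 20 bases before the annotated start and 15 bases from it, and capitals mark runs of at least 5 C or T. The start base is base 21 of each. Rpl19, Rplp0, Rps18 and Rpl37a are shown because a TOP start was present at the annotated base (a C followed by at least 4 C or T), Rps24, Rps28 and Rpl21 because the contrasts below turn on them, and Rpl34l1 and Rps17l2 as like genes named below.
Rpl19: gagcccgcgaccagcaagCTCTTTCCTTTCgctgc
Rplp0: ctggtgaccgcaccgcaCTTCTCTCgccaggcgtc
Rps18: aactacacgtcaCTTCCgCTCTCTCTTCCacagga
Rpl37a: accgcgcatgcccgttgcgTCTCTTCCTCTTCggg
Rps24: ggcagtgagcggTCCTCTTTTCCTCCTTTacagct
Rps28: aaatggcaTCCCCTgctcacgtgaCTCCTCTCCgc
Rpl21: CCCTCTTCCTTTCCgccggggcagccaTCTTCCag
Rpl34l1: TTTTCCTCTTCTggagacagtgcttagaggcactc
Rps17l2: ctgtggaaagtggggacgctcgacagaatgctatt
These lie at chr10:83519044-83519078 (+ strand, Rpl19), chr12:46718376-46718410 (- strand, Rplp0), chr20:4933725-4933759 (+ strand, Rps18), chr9:81748071-81748105 (+ strand, Rpl37a), chr16:96497-96531 (+ strand, Rps24), chr7:15311319-15311353 (- strand, Rps28), chr12:13386139-13386173 (- strand, Rpl21), chrX:66181115-66181149 (+ strand, Rpl34l1) and chr9:106540502-106540536 (+ strand, Rps17l2).

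Of the 56 ribosomal protein genes, 48 had a start region in the RefSeq table, and 20 of these 48 (41.7%) had a TOP start exactly at the annotated base. A run of at least 8 C or T somewhere in the 35-base window was present in 34 (70.8%), so in further genes such as Rps24 a pyrimidine run was there but the annotated start did not fall on a C within it. Of 39 like or related genes with a start region, 0 had a TOP start and 12 (30.8%) had the long run. In all 27457 start regions of the table, 2.63% had a TOP start and 13.8% the long run. The annotated start was an ATG in 10 of the 39 like or related genes (25.6%), in 0 of the 48 ribosomal protein genes and in 10.5% of all genes. Such an entry begins at an ATG, with no leader before it.

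The 56 ribosomal protein genes were among the brightest transcripts of the liver arrays. Signal is given as log2(intensity + 16). For the brightest probe set of each gene the mean over 24 arrays ran from 7.65 (Rps27) to 12.94 (Rps29), with a median of 11.40, and 3.7% of all probe sets on the array were brighter than that median. The median over tested probe sets was 7.93. The like and related symbols ran from 4.92 (Rps12l6) to 11.45 (Rpl29l2), with a median of 6.83, and the lowest means were those of Rps12l6, Rpl29l5 and Rps12l4, none of which passed the filter. Probes differ in affinity, so these levels give no ratio between genes. All member probe sets together made up 6.17 ± 0.46% of the summed intensity (SD, n = 7) in the chow line when fed chow and 6.60 ± 0.51% (n = 6) when fed the HFD. In the HFD line the shares were 6.62 ± 0.21% (n = 6) and 6.33 ± 0.34% (n = 5).

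Probe sets were spread unevenly over the genes. Of the 106 symbols, 73 had 1 probe set, 20 had 2 to 5 and 13 had 6 or more. Rpl21 alone had 46 and Rpl7a 43. The signals of the 46 Rpl21 probe sets were nearly the same measurement repeated, with a mean pairwise Pearson correlation over 24 arrays of 0.963 as deposited and 0.918 after quantile normalization. Ribosomal protein genes have many processed copies in mammalian genomes whose sequences are close to the parent gene, and probes of such copies cannot be told from probes of the parent here. Counts are therefore given over genes, with the brightest probe set standing for each of the 56 genes, as well as over the 295 probe sets. A further 91 probe sets listed several ribosomal protein symbols and were not members.

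The deposited intensities had not been brought to a common distribution (array medians of 97.9 to 128), so each contrast is given as deposited and after quantile normalization, which forces all arrays to 1 distribution. On these arrays the second principal component of all tested probe sets (13.8% of the variance) placed arrays 21 and 25 (both from chow-fed females of the chow line), 22 (an HFD-fed female of that line) and 24 (an HFD-fed female of the HFD line) at 22.1 to 25.1 and the other 20 arrays at -13.7 to 5.85. The group levels, most member medians and some named genes are given with and without these 4 arrays, and the other values are from all 24 arrays only. Precision is set by the number of arrays. Loss of a cell type and less RNA per cell cannot be told apart in whole tissue.

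The level of the ribosomal protein genes on each array was taken as the mean over the 56 genes of the signal minus the gene's mean. As deposited the chow line stood at -0.06 ± 0.19 (SD, n = 7) when fed chow and at 0.07 ± 0.16 (n = 6) when fed the HFD. The HFD line stood at 0.09 ± 0.09 (n = 6) when fed chow and at -0.10 ± 0.14 (n = 5) when fed the HFD. After quantile normalization the same means were -0.05 ± 0.15, 0.02 ± 0.13, 0.05 ± 0.05 and -0.00 ± 0.10. The ranges of all 4 groups overlapped on both scales.

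**Figure D1:**
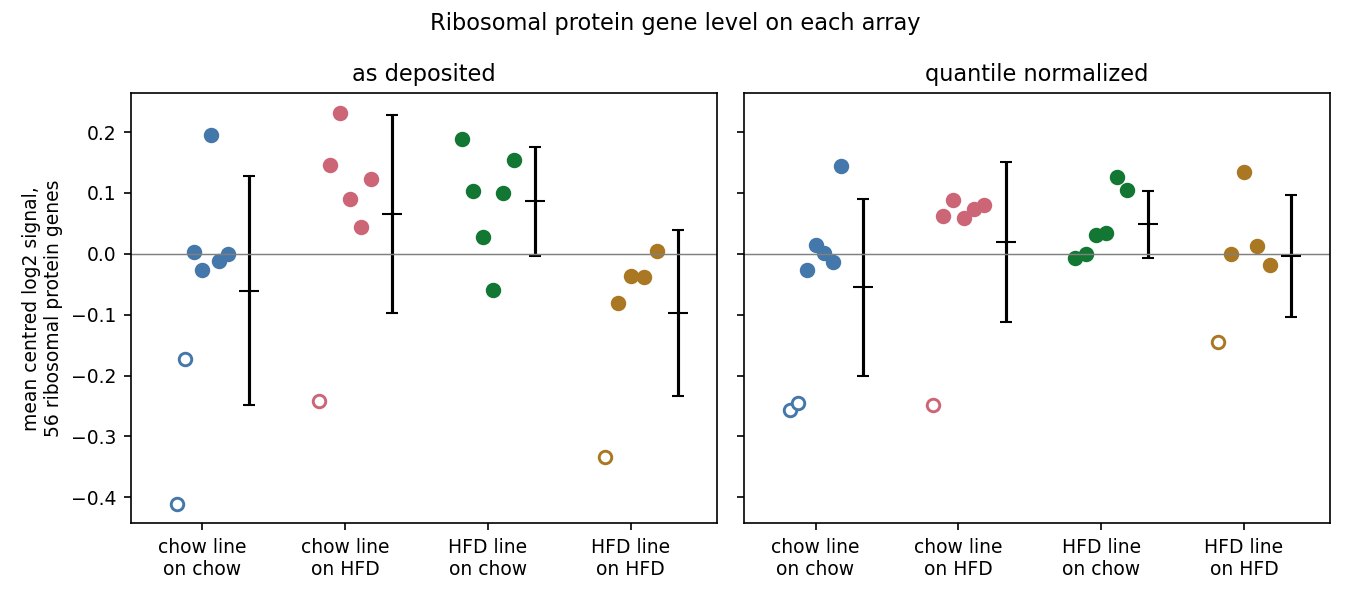
Mean centred log2 signal of the 56 ribosomal protein genes on each of the 24 arrays, by group, as deposited (left) and after quantile normalization (right). Open circles are arrays 21, 25, 22 and 24, bars are the group mean and SD, and the lowest array of 3 of the 4 groups is an open circle on both scales.

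Arrays 21, 22 and 24 stood lowest within their groups, at -0.41, -0.24 and -0.33 as deposited, and array 25 lay at -0.17. After quantile normalization arrays 21, 25, 22 and 24 were at -0.26, -0.25, -0.25 and -0.15, and the other 20 arrays were at -0.03 or above. The deficit ran through most of the family. Array 22 was the lowest of its 6-array group in 45 of the 56 genes after quantile normalization, where 25.6% of all tested probe sets had array 22 lowest. Array 21 was lowest of 7 in 26 genes and array 25 in 20, against 17.8 and 17.3% of all tested probe sets, and array 24 was lowest of 5 in 28 genes against 24.9%. The HFD line on chow had none of the 4 arrays, and without them the group means as deposited were 0.03 ± 0.09 (n = 5), 0.13 ± 0.07 (n = 5), 0.09 ± 0.09 (n = 6) and -0.04 ± 0.03 (n = 4). After quantile normalization they were 0.02 ± 0.07, 0.07 ± 0.01, 0.05 ± 0.05 and 0.03 ± 0.07.

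**Figure D2:**
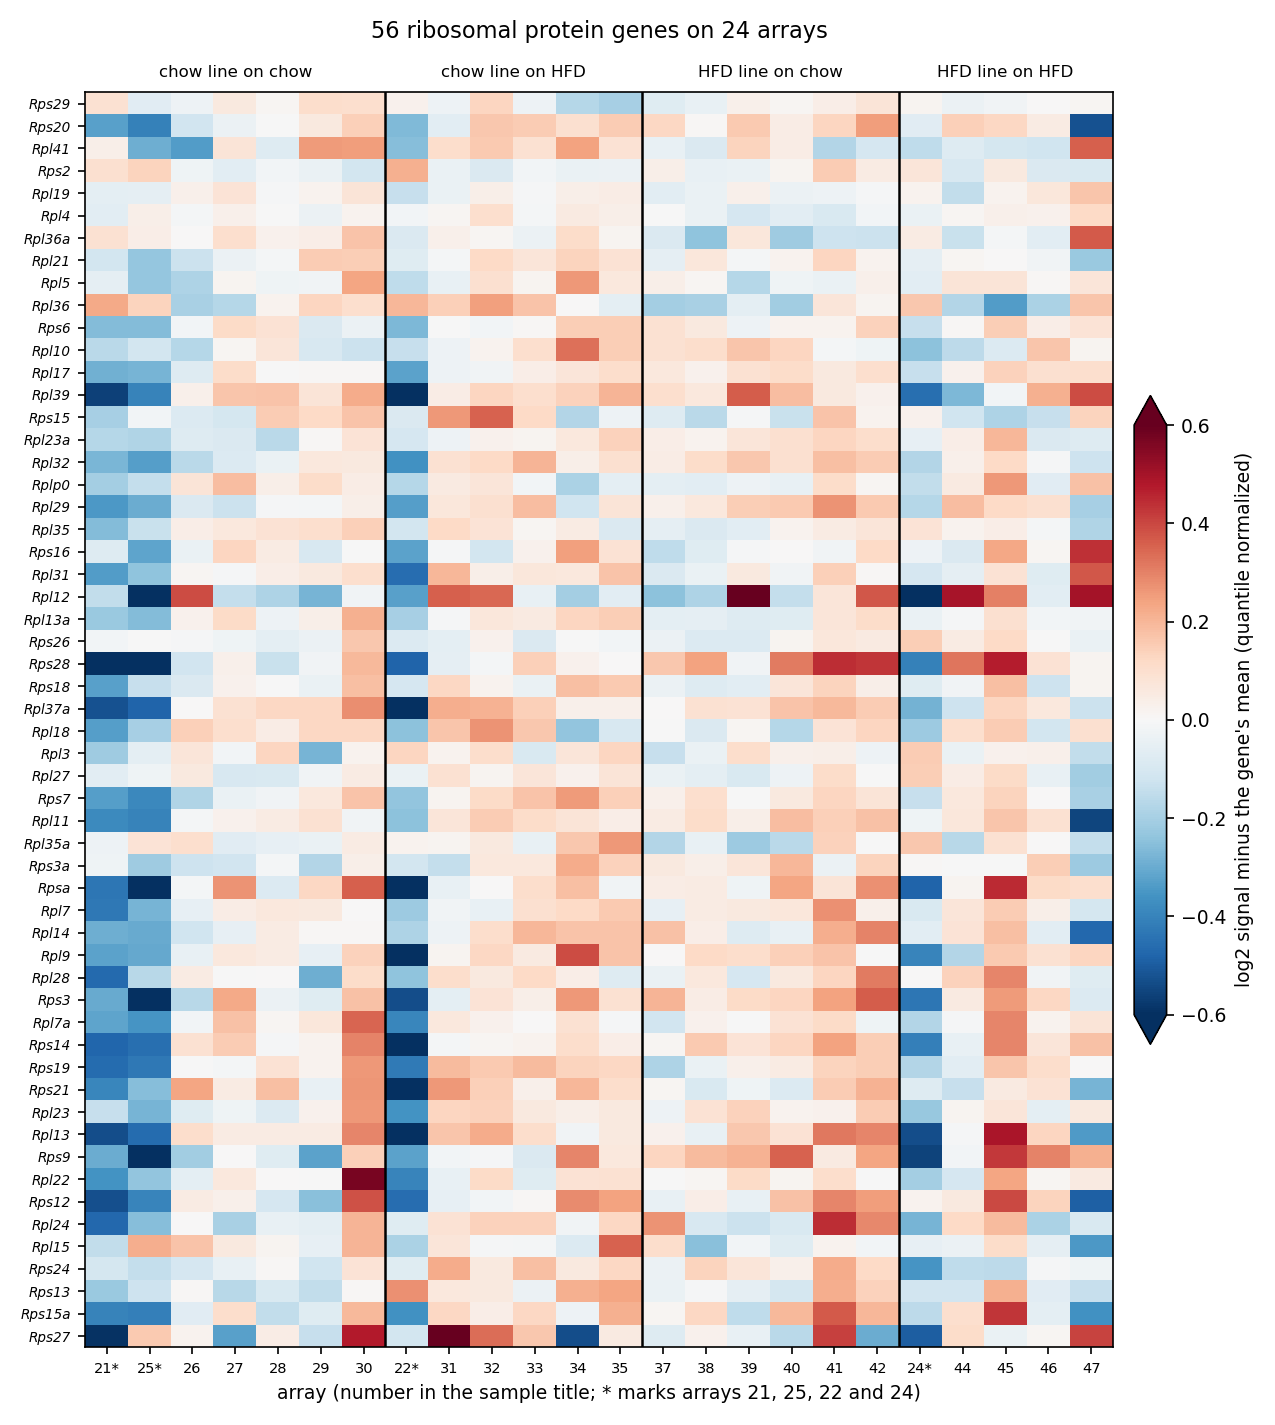
Quantile-normalized log2 signal minus the gene's mean for the 56 ribosomal protein genes (y axis, brightest gene at the top) on the 24 arrays (x axis, grouped), with blue below and red above the gene's mean. The columns marked with an asterisk (arrays 21, 25, 22 and 24) are mostly blue, while Rps2 and Rpl36 near the top are above their mean in all 4.

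The member signals moved together from array to array. The mean pairwise Pearson correlation between the 56 genes over 24 arrays was 0.569 as deposited, against 0.178 between all tested probe sets, and 0.351 against 0.00107 after quantile normalization. Over the 20 arrays without arrays 21, 22, 24 and 25 it was 0.171 after quantile normalization. For 64 mitochondrial ribosomal proteins, which make up the separate ribosome of the mitochondrion, it was 0.102 over 24 arrays, for 17 translation factors of the TOP type 0.228 and for 25 ribosome biogenesis genes 0.272. Over the same 20 arrays those lists were at 0.145, 0.181 and 0.271, so that the family, at 0.171, lay among them. As deposited, the level over the 56 genes also followed the brightness of the array (Pearson r of 0.59 and Spearman rho of 0.577 with the array median over 24 arrays). After quantile normalization r was -0.00 and rho -0.136. Over the 20 arrays without arrays 21, 22, 24 and 25, r was 0.673 and rho 0.644 as deposited, and -0.47 and -0.364 after quantile normalization. These correlations are over arrays that share 4 treatment groups and the 4 arrays named above, and are descriptions.

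The genes outside the family whose quantile-normalized signal followed the mean centred signal of the 295 members most closely over the 24 arrays were Car4 (a carbonic anhydrase, r = 0.962), Ndufa1 (a subunit of respiratory complex I, r = 0.902), Alkbh7 (r = 0.893), Spata31a5l1 (r = 0.871) and Nat9 (r = 0.863). Over the 20 arrays without arrays 21, 22, 24 and 25 the same correlations were 0.845, 0.723, 0.593, 0.615 and 0.772.

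Own diet in the chow line asked whether 12 weeks on the HFD changed the family in females whose grandfather ate chow. No member passed an adjusted p of 0.05 in limma (0 of 295, smallest adjusted p 0.262), where 0.319% of all tested probe sets passed, and 0 of 295 passed after quantile normalization, where 0.567% of all did. The members leaned upward on the HFD: 265 of 295 probe sets and 52 of 56 genes were above 0, with medians of 0.13 each, beside a median of 0.01 over all tested probe sets. At an unadjusted p under 0.05 there were 69 members (23.4%), all higher on the HFD, beside 8.8% of all tested probe sets. After quantile normalization 235 probe sets and 46 genes were above 0 (medians 0.08 and 0.08), and 46 members (15.6%) had an unadjusted p under 0.05 beside 11.6% of all. By gene, 5 of 22 small-subunit and 5 of 34 large-subunit genes had an unadjusted p under 0.05 as deposited. After quantile normalization 3 of the 22 and 1 of the 34 did. The shares over members count genes with many probe sets repeatedly. Without arrays 21, 22, 24 and 25 the member median was 0.10, and 0.07 with quantile normalization.

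Among the genes of this contrast, Rps13, a small-subunit protein, stood at 9.03 ± 0.18 (SD, n = 7; lowest 8.71, highest 9.28) when fed chow and at 9.29 ± 0.12 (n = 6; lowest 9.10, median 9.30, highest 9.43) when fed the HFD. The ranges overlapped, and the difference of 0.26 ± 0.09 (SE) had an adjusted p of 0.363. It was 0.24 ± 0.07 (adjusted p = 0.147) after quantile normalization and 0.18 without arrays 21, 22, 24 and 25. The Rpl21 probe sets all lay above 0, between 0.13 and 0.23, and had the smallest p-values of the family here (adjusted p of 0.262 at the least). Rplp0, the core of the stalk that recruits translation factors to the large subunit, read 11.65 ± 0.19 (n = 7) in the chow line on chow, and with the HFD it read 11.65 ± 0.16 (n = 6). The 95% interval of the difference lay within 0.5 log2 units of 0 for 286 of the 295 members.

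Own diet in the HFD line gave values of the opposite sign. No member passed (0 of 295, smallest adjusted p 0.0625), where 0.752% of all tested probe sets passed, nor after quantile normalization (0 of 295, beside 0.574%). As deposited 285 of 295 members and 55 of 56 genes were below 0, with medians of -0.20 and -0.18, but all tested probe sets had a median of -0.09 as well. The member median was thus 0.12 below that of all probe sets. At an unadjusted p under 0.05 there were 102 members (34.6%), all lower on the HFD, beside 15.8% of all tested. After quantile normalization, which removes the common shift, the medians were -0.07 over members and -0.05 over genes. There, 18 of 56 genes were above 0, and 32 members (10.8%) had an unadjusted p under 0.05, beside 12.5% of all tested, a smaller share. Without arrays 21, 22, 24 and 25 the member median was -0.16, and -0.05 with quantile normalization.

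Rps24, a small-subunit protein needed for processing of the ribosomal RNA precursor, had the lowest value of the 56 genes in this contrast when each was read by its brightest probe set. Over all probe sets of the members, the lowest was a dimmer one of Rps20, at -0.40 ± 0.15 (SE, adjusted p = 0.201). The Rps24 signal was 9.12 at the least, 9.34 at the median and 9.37 at the most in HFD-line females on chow, and 8.67, 8.96, 8.75, 9.12 and 9.17 in those on the HFD (arrays 24, 44, 45, 46 and 47). The groups just overlapped, with 3 of the 5 HFD arrays below all 6 chow arrays. The difference was -0.37 ± 0.10 (SE, adjusted p = 0.0836) as deposited and -0.23 ± 0.07 (adjusted p = 0.153) after quantile normalization. A further probe set of Rps24 gave -0.38 ± 0.11 and -0.25 ± 0.08. Without arrays 21, 22, 24 and 25 the first probe set stood at -0.30, and at -0.18 with quantile normalization.

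Rpl21, a large-subunit protein, was the symbol nearest to the threshold in the HFD line. All 46 of its probe sets were below 0, at -0.32 to -0.19, and all 46 had an unadjusted p under 0.05, although the 46 largely repeat 1 measurement. In the probe set with the smallest p for the interaction, the signal was 11.29 to 11.53 in HFD-line females on chow (n = 6, median 11.44), and 11.05, 11.25, 11.18, 11.22 and 11.11 in those on the HFD (arrays 24, 44, 45, 46 and 47). The groups did not overlap as deposited, in a probe set picked by its p. How many of all tested probe sets separate these 2 groups was not counted. The array median of tested probe sets was also lower on the HFD, at a mean of 7.83 against 7.96 on chow. The difference in this Rpl21 probe set was -0.27 ± 0.08 (SE, adjusted p = 0.0951), and -0.12 ± 0.06 (adjusted p = 0.374) after quantile normalization. Leaving out 1 array brought a few Rpl21 probe sets past the threshold, at shares of the members near or below that of the whole array. Without array 28, a chow-fed female of the chow line, 3 passed (1.01% of the members, beside 0.943% of all tested probe sets). Without array 22 it was 1 (0.338% beside 0.803%) and without array 46 it was 1 (0.339% beside 0.669%), and the smallest adjusted p over the alternatives was 0.0435.

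**Figure D3:**
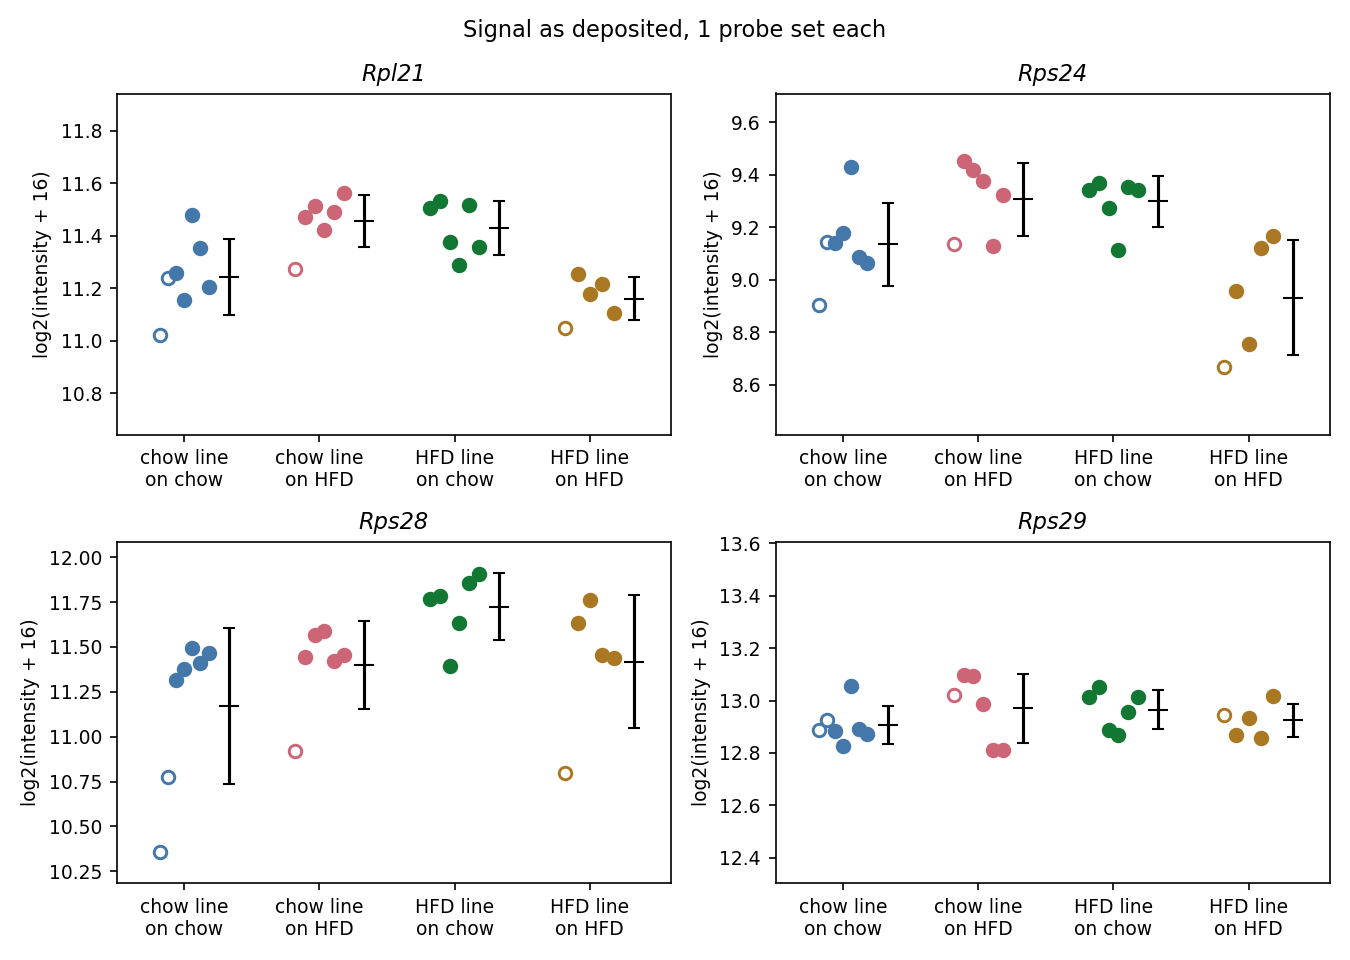
Log2(intensity + 16) as deposited of Rpl21, Rps24, Rps28 and Rps29 (1 probe set each) on every array by group, with group mean and SD. Open circles are arrays 21, 25, 22 and 24. Rpl21 in the 5 HFD-line females on the HFD lies below both the HFD-line females on chow and the chow-line females on the HFD, and Rps29 differs little between groups. The Rpl21 probe set shown is the one with the smallest p for the interaction. How many of all tested probe sets separate these groups was not counted. The array median of tested probe sets was also lower in the HFD-line females on the HFD (mean 7.83) than in either other group (mean 7.96 in each).

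Grandpaternal diet in chow-fed females set the HFD line against the chow line, both on chow. No member passed as deposited (0 of 295, smallest adjusted p 0.437; 0% of all tested probe sets) or after quantile normalization (0 of 295, smallest 0.215; 0.00637% of all). Members were mostly higher in the HFD line: 251 of 295 probe sets and 52 of 56 genes were above 0, with medians of 0.13 and 0.14 beside -0.01 over all tested. At an unadjusted p under 0.05 there were 79 members (26.8%, 77 of them higher), beside 9.15% of all tested. After quantile normalization 234 probe sets and 43 genes were above 0 (medians 0.10 and 0.11), with 62 members (21.0%) at an unadjusted p under 0.05 beside 11.6% of all. The lean was smaller without the 4 arrays, of which 21 and 25 are chow-fed females of the chow line. Without arrays 21, 22, 24 and 25 the member median was 0.05, and 0.02 with quantile normalization, where 30 of 56 genes were above 0.

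Rps28, a small protein of the small subunit, showed the highest value of the 56 genes, by brightest probe set, in chow-fed females. It was 11.17 ± 0.43 (SD, n = 7) in the chow line, where arrays 21 and 25 read 10.36 and 10.78 and the other 5 lay between 11.32 and 11.49. In the HFD line on chow it was 11.72 ± 0.19 (n = 6; lowest 11.39, median 11.78, highest 11.91). The difference was 0.55 ± 0.17 (SE, adjusted p = 0.448) as deposited and 0.50 ± 0.16 (adjusted p = 0.27) after quantile normalization, and 0.31 without arrays 21, 22, 24 and 25. In HFD-fed females the same difference was 0.02 ± 0.18. The like gene Rpl29l2 gave 0.37 ± 0.10 (adjusted p = 0.437) and Rpl29, a large-subunit protein, 0.32 ± 0.10 (adjusted p = 0.448) in its brightest probe set. Without those arrays Rpl29l2 was at 0.28.

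Grandpaternal diet in HFD-fed females gave the reverse sign. No member passed as deposited (0 of 295, smallest adjusted p 0.279; 0% of all tested) or after quantile normalization (0 of 295, smallest 0.889; 0% of all). As deposited 292 of 295 members and 55 of 56 genes were below 0, with medians of -0.19 and -0.17, while all tested probe sets had a median of -0.10. The member median lay 0.09 below it. There were 104 members (35.3%) at an unadjusted p under 0.05, all lower in the HFD line, beside 11% of all tested. After quantile normalization the medians were -0.05 and -0.03, with 98 members and 23 genes above 0. The 46 members at an unadjusted p under 0.05 (15.6%; 31 of them Rpl21) compare with 5.53% of all tested, and 3 of the 56 genes were among them. Rps24 was at -0.37 ± 0.10 (SE, adjusted p = 0.279) and Rpl34l1, a like gene, at -0.33 ± 0.11 (adjusted p = 0.35). After quantile normalization these were -0.23 ± 0.07 and -0.28 ± 0.09, each with an adjusted p of 0.889. The member median as deposited was -0.21 without arrays 21, 22, 24 and 25, where Rps24 and Rpl34l1 each stood at -0.34. It was -0.26 without array 22 alone and -0.13 without array 24 alone.

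The interaction of the diets asks whether the own-diet difference differed between the lines. No member passed as deposited (0 of 295, smallest adjusted p 0.131; 0% of all tested probe sets) or after quantile normalization (0 of 295, smallest 0.51; 0% of all). The values again leaned one way: 285 of 295 members and 55 of 56 genes were below 0, at medians of -0.31 for both, beside -0.10 for all tested. At an unadjusted p under 0.05 there were 137 members (46.4%) and 27 of 56 genes, all below 0, beside 9.71% of all tested. After quantile normalization the medians were -0.14 over members and -0.12 over genes, beside -0.01 for all tested. There 10 of 56 genes were above 0, and 79 members (26.8%) and 11 genes had an unadjusted p under 0.05, beside 6.67% of all tested. Without arrays 21, 22, 24 and 25 the member median was -0.23, and -0.09 with quantile normalization. The 95% interval lay within 0.5 log2 units of 0 for 61 of 295 members as deposited and for 195 after quantile normalization. The 5 contrasts so far are built from the same 4 group means and are not separate lines of evidence.

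**Figure D4:**
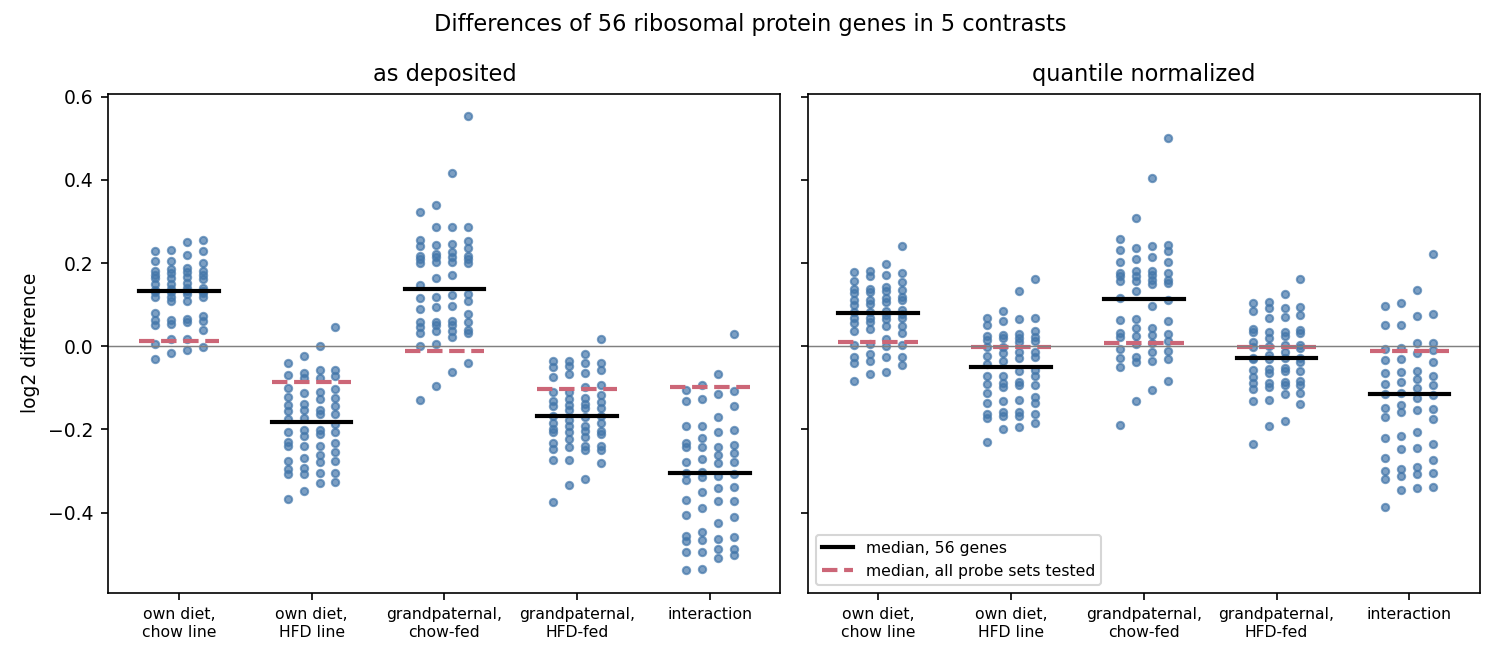
Log2 differences of the 56 ribosomal protein genes (1 point per gene, brightest probe set) in 5 contrasts, as deposited (left) and after quantile normalization (right). Black lines are the medians of the 56 genes and dashed lines those of all 15687 tested probe sets. The black and dashed lines are closer together on the right.

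Calls for the interaction appeared in only 2 of 37 alternatives, each with 1 array left out, and leaving out arrays 21, 22, 24 and 25 together gave none. Without array 28, 42 members passed, all below 0, and 41 of these were Rpl21 probe sets and 1 was Rps24. They made up 14.2% of the members, beside 0.363% of all tested probe sets, and 42 of the 57 that passed on the whole array. Without array 22, 38 members passed (12.8%, beside 0.306% of all tested), 37 Rpl21 and 1 Rpl32, of 48 in all. The Rpl21 probe sets largely repeat 1 measurement, so in genes the calls were Rpl21 with Rps24 and Rpl21 with Rpl32. Array 28 was the highest of its group for the level of the family as deposited (0.20) but not after quantile normalization (0.00), and array 22 was the lowest of its group. The 46 Rpl21 probe sets had a median of -0.45 as deposited and -0.25 after quantile normalization. Rps24 was at -0.54 ± 0.14 (SE, adjusted p = 0.18), Rpl10, which joins the large subunit late in its assembly, at -0.50 ± 0.14 (adjusted p = 0.221), and Rpl32 at -0.49 ± 0.14 (adjusted p = 0.262). Their values were -0.39, -0.29 and -0.30 after quantile normalization.

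Averaged over the lines, the own-diet contrast called no member as deposited (0 of 295, smallest adjusted p 0.376), where 1.99% of all tested probe sets passed, or after quantile normalization (0 of 295, smallest 0.226; 2.72% of all). The member median was -0.04 as deposited and 0.00 after quantile normalization, and 0 members had an unadjusted p under 0.05 as deposited, beside 13.3% of all tested, and 3 (1.02%) after quantile normalization, beside 15.9% of all. The 95% interval lay within 0.5 log2 units of 0 for 293 of 295 members on either scale. The smallest p-values were those of an Rpl7a probe set (0.19 ± 0.10, adjusted p = 0.418) and of the like genes Rpl28l3 (-0.17 ± 0.08, adjusted p = 0.376) and Rpl38l3 (-0.12 ± 0.06, adjusted p = 0.396). That probe set was not typical of Rpl7a. The 43 Rpl7a probe sets had a median of -0.07 with 2 above 0 as deposited, and -0.01 with 18 above 0 after quantile normalization.

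Averaged over own diets, the grandpaternal contrast called no member as deposited (0 of 295, smallest adjusted p 0.32; 0% of all tested) or after quantile normalization (0 of 295, smallest 0.379; 0% of all). The median was -0.03 as deposited and 0.02 after quantile normalization, and 0.03 after centring each array, so its sign changed with the scaling. Without arrays 21, 22, 24 and 25 it was -0.08 as deposited and -0.03 with quantile normalization, and without array 22 alone -0.06 as deposited. Unadjusted p-values under 0.05 were held by 28 members (9.49%) beside 11% of all tested, and by 24 (8.14%) beside 10% after quantile normalization. Rps17l2 had the smallest p, with a signal of 7.07 ± 0.16 (SD, n = 7) and 6.83 ± 0.36 (n = 6) in the chow line on chow and HFD, and 6.63 ± 0.23 (n = 6) and 6.59 ± 0.32 (n = 5) in the HFD line. The difference was -0.34 ± 0.10 (SE, adjusted p = 0.32). Rps18l3 was at -0.22 ± 0.07 (adjusted p = 0.322) and Rpl36Al2 at -0.23 ± 0.08 (adjusted p = 0.334).

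The medians of the subunits and of the start classes lay close together, and their differences were not tested. In the HFD line, the own-diet median was -0.21 over 22 small-subunit genes and -0.15 over 34 large-subunit genes as deposited, and -0.08 and -0.02 after quantile normalization. For the interaction it was -0.33 and -0.28 as deposited, and -0.14 and -0.09 after quantile normalization. Over 20 genes with a TOP start and 28 without at the annotated base, the interaction medians were -0.28 and -0.31 as deposited, and -0.10 and -0.13 after quantile normalization. Over the 39 like and related probe sets the own-diet median was 0.05 in the chow line and -0.14 in the HFD line as deposited.

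Genes often taken as references in quantitative PCR differed in how steady they were. Rps29, a zinc-binding protein of the small-subunit head, had an SD over 24 arrays of 0.09 as deposited, and after quantile normalization 1 of its probe sets had the smallest SD of the family (0.05). Its brightest probe set read 12.91 ± 0.07 (n = 7), 12.97 ± 0.13 (n = 6), 12.97 ± 0.07 (n = 6) and 12.92 ± 0.06 (n = 5) in the 4 groups. Rpl19 was at 12.19 ± 0.10, 12.25 ± 0.09, 12.21 ± 0.08 and 12.15 ± 0.18, and its 7 contrasts had adjusted p-values of 0.589 or more as deposited. Rpl13a, Rps18 and Rplp0 had SDs of 0.16, 0.17 and 0.16. Rpl32 was the widest of the 6, with an SD of 0.21 and 11.61 ± 0.19, 11.81 ± 0.24, 11.89 ± 0.09 and 11.60 ± 0.15 in the groups. Its interaction of -0.49 and its own-diet value in the HFD line (-0.29 ± 0.10, adjusted p = 0.179) did not pass. The median SD over the 56 genes was 0.20 as deposited and 0.16 after quantile normalization, and 0.20 and 0.17 over all tested probe sets. Rpl4, which lines the peptide exit tunnel, was also among the steadiest, with an SD of 0.05 after quantile normalization.

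The most variable members were 2 like genes and 1 large-subunit gene. Rpl10l1 ranged from 6.76 to 8.87 over the 24 arrays, with an SD of 0.71 on both scales, and its high and low arrays were found in all 4 groups. Rps26l1 had an SD of 0.65 and ranged from 5.56 to 7.75. Rpl12, at the base of the stalk, had an SD of 0.38 and ranged from 10.61 (array 24) to 12.15 (array 39). Group differences of these 3 did not pass, and the interaction of Rpl10l1 was 0.93 ± 0.52 (SE, adjusted p = 0.563).

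Members with close relatives by name were measured unevenly. Rpl3, near the peptidyl transferase centre, read 11.27 ± 0.22 (n = 7), 11.44 ± 0.11 (n = 6), 11.37 ± 0.06 (n = 6) and 11.23 ± 0.06 (n = 5), while Rpl3l, its muscle counterpart, lay at 5.48 to 5.59 in the group means and did not pass the filter. Rpl7l1 and Rps4y2 passed, with means of 9.95 and 7.57, and had adjusted p-values of 0.43 or more in the contrasts as deposited. Rpl22, Rpl39, Rps27 and Rpl36a passed no contrast either. Rpl39, which lines the exit tunnel, read 10.80 on array 22 and 11.93 or more on the other 5 arrays of its group. Rpl36a was 12.21 ± 0.07, 12.23 ± 0.08, 12.09 ± 0.14 and 12.13 ± 0.25, and was the 1 gene of the 56 above 0 for the interaction as deposited (0.03 ± 0.12). In HFD-line females on the HFD, array 47 read 12.58 for it and the next highest array 12.05, so this exception leans on 1 array. Rps27l, Rpl22l1, Rpl10l, Rpl39l, Rps4x and Rpl36al were not among the members and are not analysed here.

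Members with known roles beyond the ribosome did not pass in a contrast either. Rps6, the target of S6 kinases downstream of mTORC1, read 11.88 ± 0.20 (n = 7), 12.03 ± 0.17 (n = 6), 12.05 ± 0.14 (n = 6) and 11.89 ± 0.17 (n = 5). Its interaction was -0.30 ± 0.14 (SE, adjusted p = 0.481). Rpl5 and Rpl11, which bind the p53 regulator Mdm2 when ribosome assembly stalls, were at -0.22 ± 0.12 (adjusted p = 0.551) and -0.49 ± 0.17 (adjusted p = 0.34) for the interaction. Rps3, which has been linked to DNA repair, was at -0.49 ± 0.21 (adjusted p = 0.453), and Rps19, mutated in Diamond-Blackfan anaemia, at -0.31 ± 0.19 (adjusted p = 0.591). Rpsa, also known as the laminin receptor, read 10.61, 10.61, 10.60 and 10.50 on arrays 21, 25, 22 and 24 and 11.15 or more on the other 20. Those 4 arrays stood apart over all tested probe sets, and how many probe sets separate them this way was not counted. The contrasts of Rpsa had adjusted p-values of 0.559 or more as deposited.

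Other genes of translation were read from the same fit. None of the 17 TOP-type translation factors passed in any contrast on either scale. For own diet averaged over the lines 0 of them had an unadjusted p under 0.05 as deposited, beside 13.3% of all tested probe sets. For the interaction 6 of 17 did (35.3%, beside 9.71% of all), all below 0, among them Eif4a2 at -0.29 and Tpt1 at -0.27, and after quantile normalization 0 did (beside 6.67%). None of the 25 ribosome biogenesis genes passed either. At an unadjusted p under 0.05 as deposited there was 1 for own diet averaged over the lines and 4 (16%) for the interaction. Their interaction medians were -0.27 and -0.20 as deposited, and -0.08 and -0.07 after quantile normalization. Eef1g was at -0.06 ± 0.09 (SE) and Naca at 0.12 ± 0.07 (adjusted p = 0.498) for own diet averaged over the lines. Of 64 mitochondrial ribosomal proteins 0 passed as deposited in any contrast (5 at an unadjusted p under 0.05 for own diet averaged over the lines, or 7.81% beside 13.3% of all tested). After quantile normalization 9 had an unadjusted p under 0.05 (14.1% beside 15.9% of all). There, 3 of the 64 rose on the HFD averaged over the lines, where 2.72% of all tested probe sets passed: Mrps30 (0.27 ± 0.05, adjusted p = 0.00352), Mrpl1 (0.21 ± 0.04, adjusted p = 0.00785) and Mrpl50 (0.24 ± 0.05, adjusted p = 0.0142). Mrps30 also rose in the HFD line (0.38 ± 0.08, adjusted p = 0.0153). As deposited the averaged values of the 3 were 0.20, 0.15 and 0.19, with adjusted p-values of 0.181, 0.289 and 0.238.

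Among 18 regulators of mTORC1 and of TOP translation, 1 passed. It did so for own diet averaged over the lines, where 1.99% of all tested probe sets passed as deposited and 2.72% after quantile normalization. Sesn1, a sestrin that restrains mTORC1 when leucine is scarce, fell on the HFD averaged over the lines by 0.43 ± 0.07 (SE, adjusted p = 0.000312), and by 0.36 ± 0.06 (adjusted p = 0.000984) after quantile normalization. Sesn1 fell in the chow line (-0.49 ± 0.09, adjusted p = 0.00628), where 0.319% of all tested probe sets passed as deposited. In the HFD line, where 0.752% of all passed, it was at -0.37 ± 0.10 (adjusted p = 0.0692), or -0.22 ± 0.09 (adjusted p = 0.295) after quantile normalization. Rps6kb1, which encodes the kinase of Rps6, was at -0.22 ± 0.10 (adjusted p = 0.41) and Myc at 0.34 ± 0.16 (adjusted p = 0.443) for grandpaternal diet averaged over own diets.

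Some markers of other cell types changed with own diet while the members did not pass. Averaged over the lines, 3 of 8 markers of Kupffer cells fell on the HFD: Marco (-1.16 ± 0.16, adjusted p = 6.93e-05), Cd5l (-0.70 ± 0.14, adjusted p = 0.00731) and Vsig4 (-0.55 ± 0.14, adjusted p = 0.0393). In that contrast 1.99% of all tested probe sets passed as deposited. The summed intensity of the 8 ran from 4938 to 8236 in the chow line on chow and from 2824 to 5259 on the HFD. The corresponding ranges in the HFD line were 3981 to 7155 and 3636 to 6041. Of the other lists, Epcam of 4 bile duct markers and Cpa1 of 5 pancreatic acinar markers fell, and Fabp4 of 5 adipocyte markers rose. The mean centred, quantile-normalized level of the bile duct list was 0.05 on chow and 0.04 on the HFD in the chow line. In the HFD line it was 0.03 and -0.15. The acinar list was at 0.19 and 0.03, then 0.00 and -0.32, and the adipocyte list at -0.10 and 0.12, then -0.07 and 0.07. None of 7 hepatocyte, 9 lymphocyte, 5 erythroid, 3 endothelial and 5 stellate cell markers passed in a contrast as deposited. The part of these cells in the member values was not tested.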

How the data were processed

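Each array has 1 deposited linear intensity per probe set. The authors summarised it with PLIER in Affymetrix Expression Console, going by the submitters' processing notes, and the sources used here give no version or options. The deposited values were taken as log2(intensity + 16), and the dimmest 25% of probe sets by mean signal (5230) were dropped. The other 15687 were fitted in limma 3.58.1 (R 4.3.3, lmFit and eBayes with an intensity trend, 4 group means, 24 arrays). Two-sided p-values were adjusted by Benjamini-Hochberg over all 15687, with a threshold of 0.05. Arrays counted as independent animals. The fit was checked on simulated data drawn with independent noise for each probe set. That check does not cover members that move together or the 4 arrays that stood apart. Differences are on the log2(intensity + 16) scale, which understates changes of dim probe sets.

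Alternatives were quantile normalization, median centring, other filters and offsets, no trend, 1 probe set per gene, and arrays left out. Named members are those with the smallest p per contrast, the brightest, dimmest, steadiest and most variable, PCR reference genes, and members with close relatives or roles beyond the ribosome. The members, the lists and the 4 arrays left out together were chosen with earlier results of these data known. Start regions are from a RefSeq table of assembly GRCr8.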

Additional observations from a re-analysis of the deposited data

Results flagged for a closer look

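In 248 sets of values (4 groups for each of 58 named probe sets as deposited and of the level over genes and over like genes on both scales), 24 held an array that lay far from the rest of its group by Dixon's test at the 95% level. Chance alone gives about 1 in 20, and the sets are not independent because the genes move together. Array 22 (chow line, HFD) accounted for 14, each time as the lowest of its group. It read -0.25 for the quantile-normalized level of the 56 genes, where the next array was at 0.06. In signal it read 10.93 and 11.45 in 2 probe sets of Rpl21, 10.53 and 10.92 in those of Rps28, 11.29 for Rpl13a, 12.07 for Rpl19, 11.35 for Rpl32, 10.80 for Rpl39, 10.81 for Rpl7, 11.70 for Rps6, 10.35 for Rps3, 10.60 for Rpsa (10.595 before rounding) and 9.74 for Rps19.

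Array 24 (HFD line, HFD) was lowest at -0.33 for the level of the 56 genes as deposited, at 11.34 for Rpl32 and at 10.21 for Rps3. Array 21 (chow line, chow) was lowest at -0.27 for the level of the like genes as deposited and at 10.93 for Rps18. Array 40 (HFD line, chow) was lowest at 9.02 for a probe set of Rps24 and at 11.72 for Rpl32. Array 35 (chow line, HFD) was highest at 7.64 for Rpl38l3 and at 8.59 for Rpl10l1, and array 47 (HFD line, HFD) was highest at 12.58 for Rpl36a. What set these arrays apart was not tested.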

How the results depend on the processing

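Over 37 alternatives the member median kept its sign in each of the first 5 contrasts, and in 35 of 37 for each averaged contrast. It moved by more than the spread between arrays of a group (0.136) in 4 cases: to -0.049 for own diet in the HFD line with arrays 21, 22, 24 and 25 left out and quantile normalization, to -0.051 for grandpaternal diet in HFD-fed females with quantile normalization, and for the interaction to -0.14 with quantile normalization and to -0.091 when the 4 arrays were left out as well. Leaving out 1 array at a time gave 0 to 3 members called for own diet in the HFD line, where 3 of 295 (1.01%) stood beside 0.943% of all tested probe sets, and 0 to 42 for the interaction (14.2% beside 0.363%). Of those 42, 41 were Rpl21 probe sets, which largely repeat 1 measurement. All other alternatives called 0 members in every contrast. Among the members with the smallest p per contrast, 14 values passed under a left-out array, of Rpl21 or Rps24, and no value of these members changed sign under the alternatives run. Restricting the members to symbols of a ribosomal protein itself was chosen after seeing the data. No paired analysis was possible because no replicate number occurs in more than 1 group. The standard error of a difference limits what could be detected (median 0.08 to 0.15 log2 units as deposited), and dim like genes are the least certain.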
